A study of Homo sapiens with 36 samples.

Results

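The pseudopod change of glioma and sarcoma lines was compared with that of the other cancer lines. For each of 6 human cell lines the pseudopod change of a gene was the mean of its pseudopod arrays minus the mean of its cell body arrays on the log2(intensity + 16) scale. The quantity studied was the mean of this change in U87, U251 and HT1080 minus its mean in DU145, MDA231 and MDA435, called the difference here. It was read for the 6894 genes (of 19775 with a probe set of 1 gene symbol) whose mean cell body intensity reached 100 in each of the 6 lines, called the members. ACOT8 lay just inside this limit, with 100 in its dimmest line, and TRIB3 just outside, with 99.9. Their differences were 0.21 and 0.14. All 6894 members were among the 15399 genes bright enough to be tested.

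The study plated the lines on porous filters for 24 hours and scraped the 2 sides of the filter apart. The underside held the pseudopods, the actin-filled protrusions that cells push through the pores, and the upper side held the cell bodies. Each line gave 3 pseudopod and 3 cell body arrays, 36 in all, so each set of lines had 9 arrays of either fraction. The labels give replicate numbers but do not say whether replicates were separate cultures, so p-values measure the spread between these samples, which may be technical.

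U87 and U251 are glioblastoma lines and HT1080 is a fibrosarcoma line. They were grown in high-glucose DMEM, and DU145 (prostate carcinoma), MDA231 (breast carcinoma) and MDA435 in RPMI-1640, with nonessential amino acids, glutamine and serum, and vitamins in the DMEM. Medium and line set therefore cannot be told apart. MDA435 was described as a breast cancer line, but is now known to be of melanoma origin. No line received a drug or a transgene. In these bulk fractions, fewer cells of a type and less of an RNA per cell cannot be told apart.

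The lineage markers followed these descriptions in part. The summed intensity of 7 epithelial markers was 94.3 to 346.8 in arrays of U87, U251 and HT1080, 6885 or more in DU145 and 2951 or more in MDA231. In MDA435 it ran from 556.3 to 7453, so that some of its arrays reached the range of the carcinoma lines. The sum of 5 glial markers was 7320 or more in U251 but at most 466.2 in U87, so U87 had little of them. MDA435 exceeded U87 there, with 1590 to 2509 in its cell bodies. The sum of 6 melanocytic markers was 4388 or more in MDA435 and at most 678.9 elsewhere. In cell bodies the sum of 5 mesenchymal markers was 17320 to 23720 in U87, 7019 to 8555 in U251 and 10740 to 12570 in HT1080. It was 2778 to 3472 in DU145, 3518 to 4710 in MDA231 and 5105 to 6670 in MDA435. None of the epithelial, glial or blood markers was a member.

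Some arrays stood apart from their group. In U87 pseudopod replicate 3 the changes were small: their root mean square over the members was 0.41, against 0.75 and 0.89 in replicates 1 and 2. RNA45SN5, the ribosomal RNA precursor of the nucleolus, was at 408 intensity units in that array and at 85.2 and 15.3 in replicates 1 and 2. Among the 12 arrays of MDA231 and MDA435, 6 had an intensity of CDH1, the epithelial cadherin, above 100 and 6 did not. They were pseudopod replicate 3 and cell body replicate 2 of MDA231, and pseudopod replicates 1 and 2 and cell body replicates 2 and 3 of MDA435. Results are given with and without these arrays. Without them MDA435 keeps 1 pseudopod and 1 cell body array. Every array was nearest in correlation to one of its own line, and none were identical.

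Most membrane and secreted proteins are made by ribosomes bound to the endoplasmic reticulum (ER), where their messenger RNAs are held, and pass through the Golgi apparatus to the surface. Cytoplasmic and mitochondrial proteins encoded in the nucleus are translated by free ribosomes or at the mitochondrial surface. Since the ER lies largely in the cell body, protrusions of many cell types hold less mRNA of the secretory pathway and relatively more mRNA of ribosomal and respiratory proteins. Some ER chaperone genes carry the ER stress element, a promoter motif through which the unfolded protein response raises their transcription.

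ER chaperone and folding genes fell in the pseudopods of both sets of lines, and the fall was larger in U87, U251 and HT1080. Of 32 members, 32 fell in the glioma and sarcoma lines and 28 in the other lines (limma, adjusted p under 0.05). The shares of all members that fell were 20.2% and 17.9%. The median change was -1.29 in the first set and -0.78 in the second, and the median difference was -0.62, against 0.028 over all members. The list medians of U87, U251 and HT1080 were -1.55, -1.16 and -1.53, and those of DU145, MDA231 and MDA435 were -0.63, -0.83 and -0.90. The lines of one set thus all lay below those of the other, and U251 was the nearest to the second set. The difference was below 0 for 31 of 32 members, and for 20 of them (62.5%) the 3 line changes of U87, U251 and HT1080 all lay below the other 3. This was so for 9.01% of all members and 6.79% of all tested genes. It was also so for 214 of the 523 members of any list that fell between 2-fold and 4-fold on average over the sets. Of the list, 1 member passed the test of the difference: TMX1, a membrane-bound thioredoxin of the ER (-0.77 ± 0.18, SE, adjusted p = 0.036).

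The ER stress element was searched in the promoters of these genes because it is a textbook sequence of ER chaperone promoters. The motif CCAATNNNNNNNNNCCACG was looked for on both strands of 300 bases (250 before to 50 after the start of the gene), from RefSeq, build GRCh38.p14. It stood in 7 of the 30 ER members with a promoter in that table (23.3%), in 13 of 5895 members (0.221%) and in 25 of 27305 genes (0.0916%). The sequences below run 5′ to 3′ on the strand of the gene, and capitals mark the motif, which reads as its reverse complement in CALR, CRELD2, ERO1B and the second HSP90B1 site.
HSPA5, chr9:125241371-125241429, minus strand: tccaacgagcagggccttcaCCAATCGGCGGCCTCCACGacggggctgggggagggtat
HSP90B1, chr12:103930196-103930254, plus strand: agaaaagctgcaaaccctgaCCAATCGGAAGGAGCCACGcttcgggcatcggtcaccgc
HSP90B1, chr12:103930301-103930359, plus strand: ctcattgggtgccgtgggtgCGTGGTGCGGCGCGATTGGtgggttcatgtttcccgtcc
CALR, chr19:12938364-12938422, plus strand: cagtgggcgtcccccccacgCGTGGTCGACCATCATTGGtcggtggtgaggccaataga
CANX, chr5:179698758-179698816, plus strand: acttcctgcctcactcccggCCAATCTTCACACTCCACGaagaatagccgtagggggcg
PDIA6, chr2:10812833-10812891, minus strand: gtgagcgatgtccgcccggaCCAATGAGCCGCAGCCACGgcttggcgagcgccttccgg
CRELD2, chr22:49918534-49918592, plus strand: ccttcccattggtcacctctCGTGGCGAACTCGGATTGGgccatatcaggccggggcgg
ERO1B, chr1:236282163-236282208, minus strand: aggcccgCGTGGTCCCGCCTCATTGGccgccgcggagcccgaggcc

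The 7 ER genes with the motif all had a difference below 0, with a median of -0.80, and the 23 without it in this window had a median of -0.61. HSP90B1, the HSP90 of the ER, had a difference of -1.11 (adjusted p = 0.267) and HSPA5, its HSP70, of -0.95 (adjusted p = 0.0899). CRELD2, which assists folding, followed at -0.94, the disulfide isomerase gene PDIA6 at -0.80, CALR and CANX, the lectin chaperones calreticulin and calnexin, at -0.70 and -0.69, and the oxidase gene ERO1B at -0.32. None of the 7 passed the test of the difference. The other 6 members with the motif lay nearer 0: XBP1 (-0.29), FICD (-0.28), TMEM120A (-0.25), TRIM5 (-0.16), and EIF2A (0.13) and SERP1 (0.16), whose promoters share 1 site. A match is a description of letters and not a measured binding site.

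HSPA5 shows how the chaperones behaved array by array. In cell bodies its intensity had a lowest, median and highest value of 3306, 4030 and 6180 over the 9 arrays of U87, U251 and HT1080 and of 2454, 3117 and 4292 over those of the other lines. In pseudopods these were 646, 1213 and 2780 against 1225, 1984 and 3036. The cell body and pseudopod ranges did not overlap in the first set and did in the second. HSPA5 fell 3.29-fold in the first set and 1.70-fold in the second (adjusted p = 2.02e-08 and 0.00293). SERPINH1, the collagen chaperone, fell in both sets by more, -2.08 and -1.58, and its difference of -0.50 did not pass (adjusted p = 0.377).

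**Figure D1:**
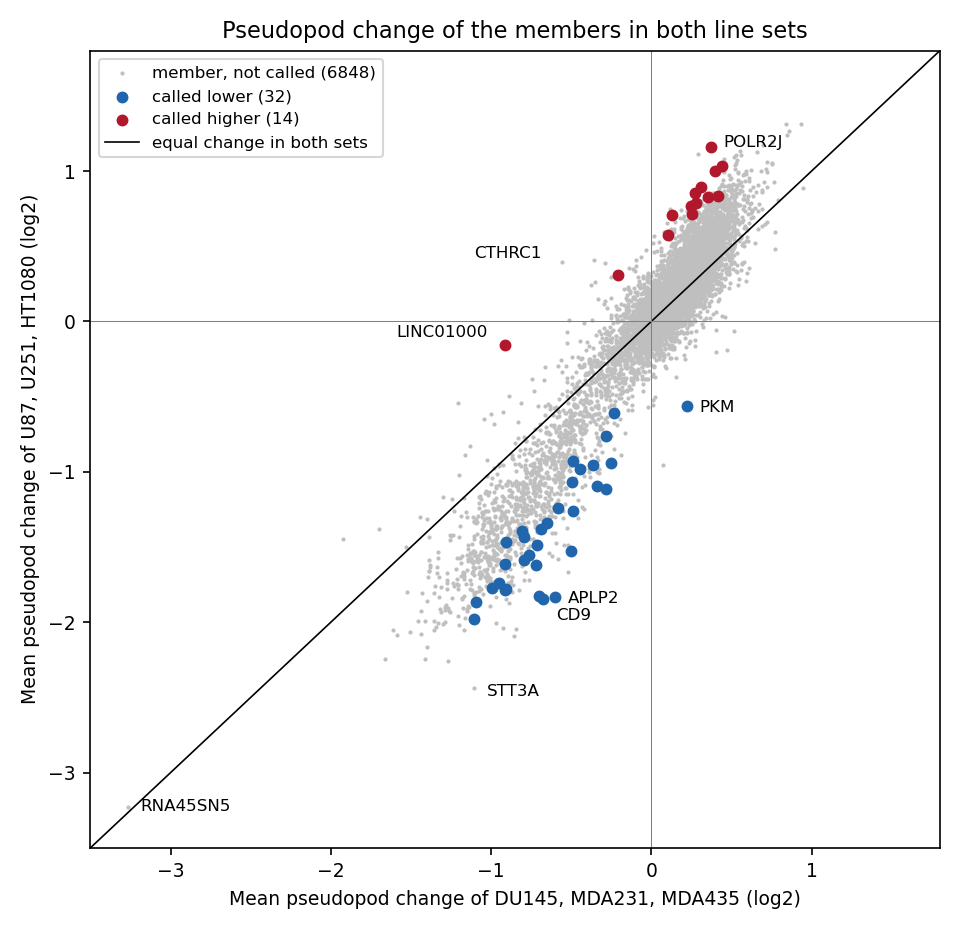
Pseudopod change of the 6894 members, as the mean over DU145, MDA231 and MDA435 on the x axis and over U87, U251 and HT1080 on the y axis (both log2). Most genes that fell lie below the line of equal change, and the 32 called lower (blue) and 14 called higher (red) lie on either side of it.

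Changes of most members had 1 sign in both sets and were larger in the glioma and sarcoma lines. Of the members, 2730 (39.6%) were higher and 1392 (20.2%) lower in the pseudopods of U87, U251 and HT1080 (limma, adjusted p under 0.05). The shares among all tested genes were 24.4% and 17.4%. In the other lines 1874 members (27.2%) were higher and 1232 (17.9%) lower, against 15.5% and 14.9% of all tested genes. The changes of the 2 sets had 1 sign for 6238 members (90.5%), with Pearson's r = 0.95 and Spearman's rho = 0.89 across genes, which are not independent replicates. No member was called in both sets with opposite signs. The size was larger in the glioma and sarcoma lines for 5118 members (74.2%). The SD of the change over members was 0.60 in that set and 0.41 in the other, a ratio of 1.47.

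The size of the change varied among lines within a set as well. Its root mean square over the members was 0.65 in U87, 0.53 in U251, 0.70 in HT1080, 0.37 in DU145, 0.42 in MDA231 and 0.51 in MDA435, so that U251 and MDA435 were close. For the 523 members that fell between 2-fold and 4-fold on average, the median change was -1.49 in the first set and -0.99 in the second, and 514 of them had a difference below 0. For the 508 whose average rise was under 2-fold and at least 0.5 on the log2 scale the medians were 0.72 and 0.45, and 489 had a difference above 0. RNA45SN5, the only member with an average fall past 4-fold, had -3.23 in the first set and -3.27 in the second (difference 0.04 ± 0.46, SE).

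**Figure D2:**
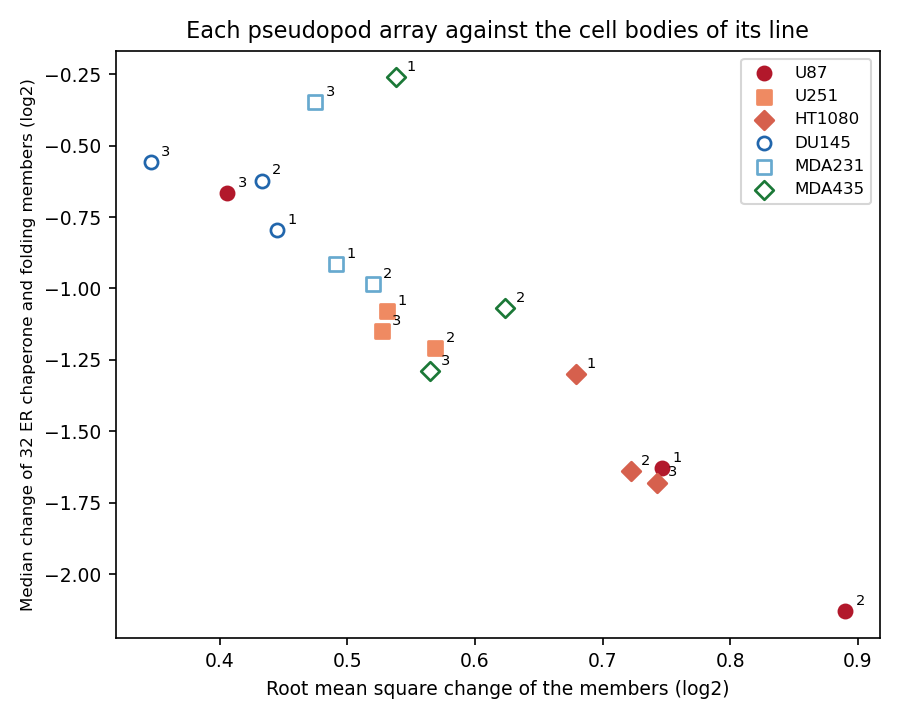
Each of the 18 pseudopod arrays against the cell body mean of its line: root mean square change of the members (x axis, log2) and median change of the 32 ER chaperone and folding members (y axis, log2), with replicate numbers beside the points. U87 replicate 3 (0.41 and -0.67) lies among the DU145 arrays, apart from U87 replicates 1 and 2 (-1.63 and -2.13).

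Single arrays show the overlap between the sets. The ER list median was -1.08 or lower in 8 of the 9 pseudopod arrays of U87, U251 and HT1080 and -0.67 in U87 replicate 3. In the other lines it ran from -1.29 in MDA435 replicate 3 to -0.26 in MDA435 replicate 1. The latter and MDA231 replicate 3 (-0.35) are arrays with CDH1 above 100, and their part in the result was not tested. Without the 6 such arrays the median difference of the list was -0.50. Most of the 46 called members were then no longer called, but that fit had 1 pseudopod and 1 cell body array of MDA435. The loss of calls cannot be told apart from the smaller number of arrays. Without U87 pseudopod replicate 3 the median difference of the list was -0.76.

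The test over all 36 arrays called few members. At an adjusted p under 0.05, 14 members (0.203%) had a higher and 32 (0.464%) a lower change in U87, U251 and HT1080. Among all 15399 tested genes the shares were 0.188% and 0.591%, near those of the members. Of the 32, 29 fell in both sets and more in the first, and 3 fell in the first and were not called in the second. Of the 14, 10 rose in both sets and more in the first, 3 rose in the first only by this call, and LINC01000 fell in the second. The split between called directions depended on the scaling: 69.6% of the calls were lower as deposited, 100% with equal array medians and 52.9% after quantile normalization.

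These counts describe these 6 lines. With the lines as units, 3 against 3, limma called 0 members and 1 tested gene (TMEM200A, not a member; 0.00649%), while 958 members (13.9%) and 11.9% of tested genes had an unadjusted p under 0.05. The 3 line changes of U87, U251 and HT1080 all lay above the other 3 for 842 members (12.2%) and all below for 621 (9.01%), against 10.7% and 6.79% of tested genes. Without U87 pseudopod replicate 3 the array test called 112 members higher and 397 lower. Without any other single array it called 7 to 26 higher and 14 to 43 lower. With only the MDA231 and MDA435 arrays of CDH1 under 100 it called fewer members, but MDA435 then had 1 array of each fraction. Of the 46 called members, 20 (13 lower and 7 higher) were called in each of the 36 fits without 1 array.

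Cell body levels of the called members were about as near each other as those of all members. The 2 sets' mean cell body intensities lay within 1.5-fold of each other for 28 of the 32 members called lower, for 11 of the 14 called higher and for 5820 of all 6894 members (84.4%). The 32 had a median cell body intensity of 1811 in the first set and 1684 in the second, and a median pseudopod intensity of 661 and 973. The 14 had medians of 534 and 561 in cell bodies and of 995 and 724 in pseudopods. The cell body medians of all members were 567 and 578.

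**Figure D3:**
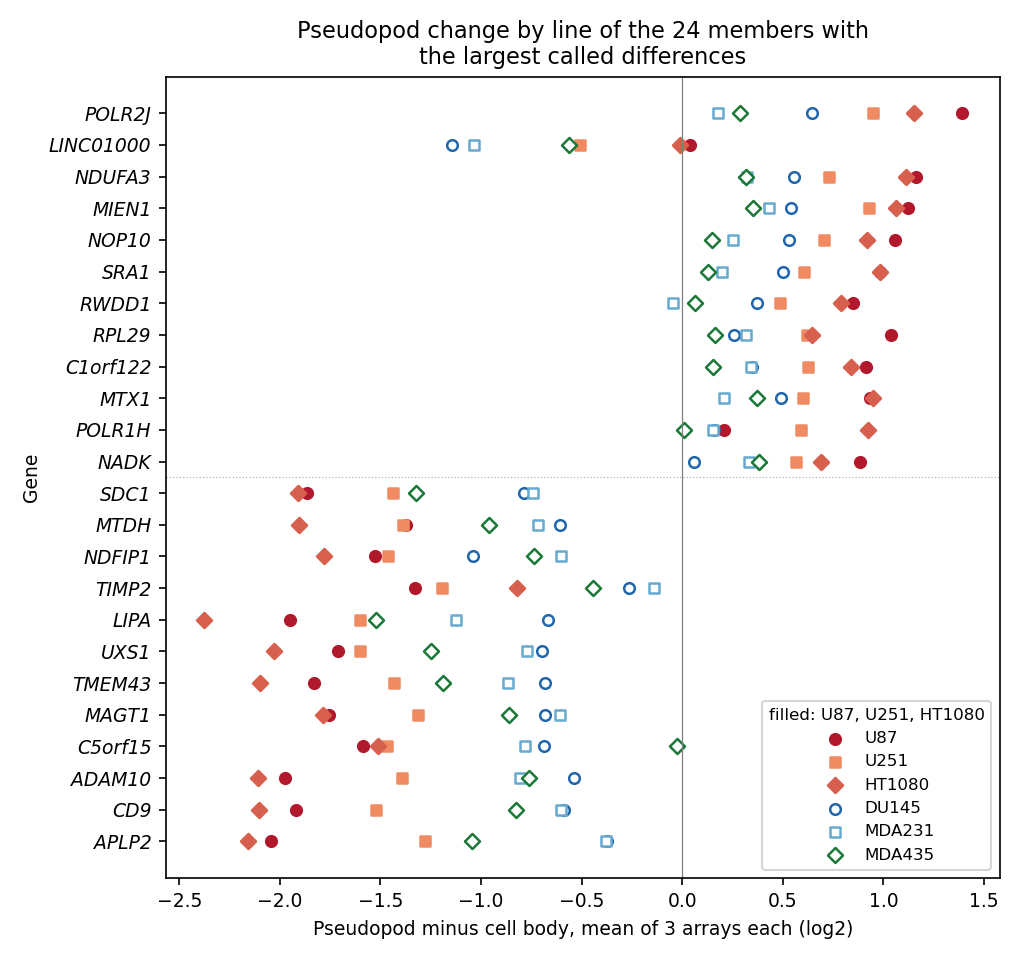
Pseudopod change (x axis, log2, mean of 3 arrays against mean of 3 arrays) in each line for the 12 largest higher and 12 largest lower differences among called members whose lines do not overlap between sets. Filled symbols are U87, U251 and HT1080. For each gene called lower they lie left of all open symbols, and for each gene called higher right of them.

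Of the 32 members called lower, 9 were in one of the gene lists, and 8 of these in lists of the secretory pathway, cell surface, matrix or lysosome. The largest difference was that of APLP2, a membrane relative of the amyloid precursor protein. Its lowest, median and highest cell body intensities were 1836, 2630 and 3418 in the first set and 1671, 2378 and 3203 in the second. Its pseudopod intensities were 277, 629.9 and 1539 against 771, 1769 and 2324. In cell bodies the sets covered the same range, and in pseudopods the first set was lower with overlap. The change was -2.05, -1.28 and -2.16 in U87, U251 and HT1080 and -0.37, -0.38 and -1.05 in DU145, MDA231 and MDA435. The difference was -1.23 ± 0.24 (SE, adjusted p = 0.00831, 95% interval -1.73 to -0.73). Of its 7 other probe sets 6 also had differences below 0. The last, a dim one, gave 0.03 and was the only one left when probe sets marked as shared between transcripts were dropped.

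CD9, a tetraspanin that organises integrins in the membrane, followed. Its mean pseudopod intensity was 844 ± 541 in U87, 1195 ± 178 in U251 and 32.4 ± 15.2 in HT1080 (SD, n = 3), against cell body means of 2867 ± 367, 3479 ± 643 and 194.6 ± 78.0. HT1080 had far less CD9 than the other lines in both fractions. In DU145, MDA231 and MDA435 the pseudopod means were 1941, 1433 and 1640 and the cell body means 2932, 2193 and 2935. Pseudopod and cell body arrays did not overlap in any of the 6 lines. CD9 fell in both sets, by 1.85 and 0.67 on the log2 scale, a difference of -1.17 ± 0.22 (SE, adjusted p = 0.00703).

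ADAM10, the membrane protease that sheds many surface proteins, fell from a median of 2688 to 764 intensity units in the first set and from 2590 to 1529 in the second. Its highest pseudopod value in the first set, 1334, lay below the second set's median. The difference was -1.12 ± 0.22 (SE, adjusted p = 0.00767). C5orf15 had a difference of -1.02, with changes of -1.59, -1.47 and -1.51 against -0.69, -0.78 and -0.03. MAGT1, a magnesium transporter and subunit of the oligosaccharyltransferase, had one of -0.90.

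The rest of the 12 were TMEM43, a membrane protein of the ER and nuclear envelope (-0.88; a dim probe set gave 0.29), UXS1, which makes UDP-xylose for proteoglycans (-0.87), LIPA, the lysosomal acid lipase (-0.87), TIMP2, a secreted inhibitor of metalloproteinases (-0.83), NDFIP1, a membrane adaptor of ubiquitin ligases (-0.80), MTDH (-0.79), and SDC1, the cell surface proteoglycan syndecan-1 (-0.79). TIMP2 fell in the first set only by this call (-1.12 against -0.28, adjusted p = 0.147 in the second). For SDC1 the adjusted p was 0.0497, the highest of the 46.

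The other 20 members called lower had differences from -0.78 to -0.38. Among them were the cargo lectin gene LMAN2L (-0.78), the hyaluronidase gene HYAL2 (-0.77), SPTLC1, which starts sphingolipid synthesis (-0.70), MESD, a chaperone of lipoprotein receptors (-0.69), SLC35A2, the UDP-galactose transporter of the Golgi (-0.69), the ER ubiquitin ligase gene RNF139 (-0.64), IL6ST, the signalling receptor of interleukin 6 (-0.57), DPY19L3, an ER mannosyltransferase (-0.56), TRAM1, a translocon-associated protein gene (-0.48), and the GPI anchor synthesis genes PIGO (-0.77) and PIGC (-0.44). PIGC had another, dim probe set at 0.03. PIGO was the only called lower member whose lines overlapped: U251 changed by -1.41 and MDA435 by -1.46.

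PKM, the glycolytic enzyme pyruvate kinase, was called lower with opposite signs among the lines. Its changes were -0.60 in U87, -0.59 in U251, -0.49 in HT1080, -0.29 in DU145, 0.36 in MDA231 and 0.61 in MDA435. Its mean intensity went from 1530 ± 155 in cell bodies to 1962 ± 160 in pseudopods in MDA231 and from 1019 ± 130 to 1556 ± 151 in MDA435 (SD, n = 3). It went from 2323 ± 479 to 1529 ± 330 in U87. Pseudopod and cell body arrays overlapped in none of the 6 lines. The difference was -0.78 ± 0.15 (SE, adjusted p = 0.00703), and the second set's change of 0.22 did not pass (adjusted p = 0.11). The other PKM probe set, at a mean intensity of 90.4, had changes of -0.97 and -1.16 in the sets, a difference of 0.19.

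**Figure D4:**
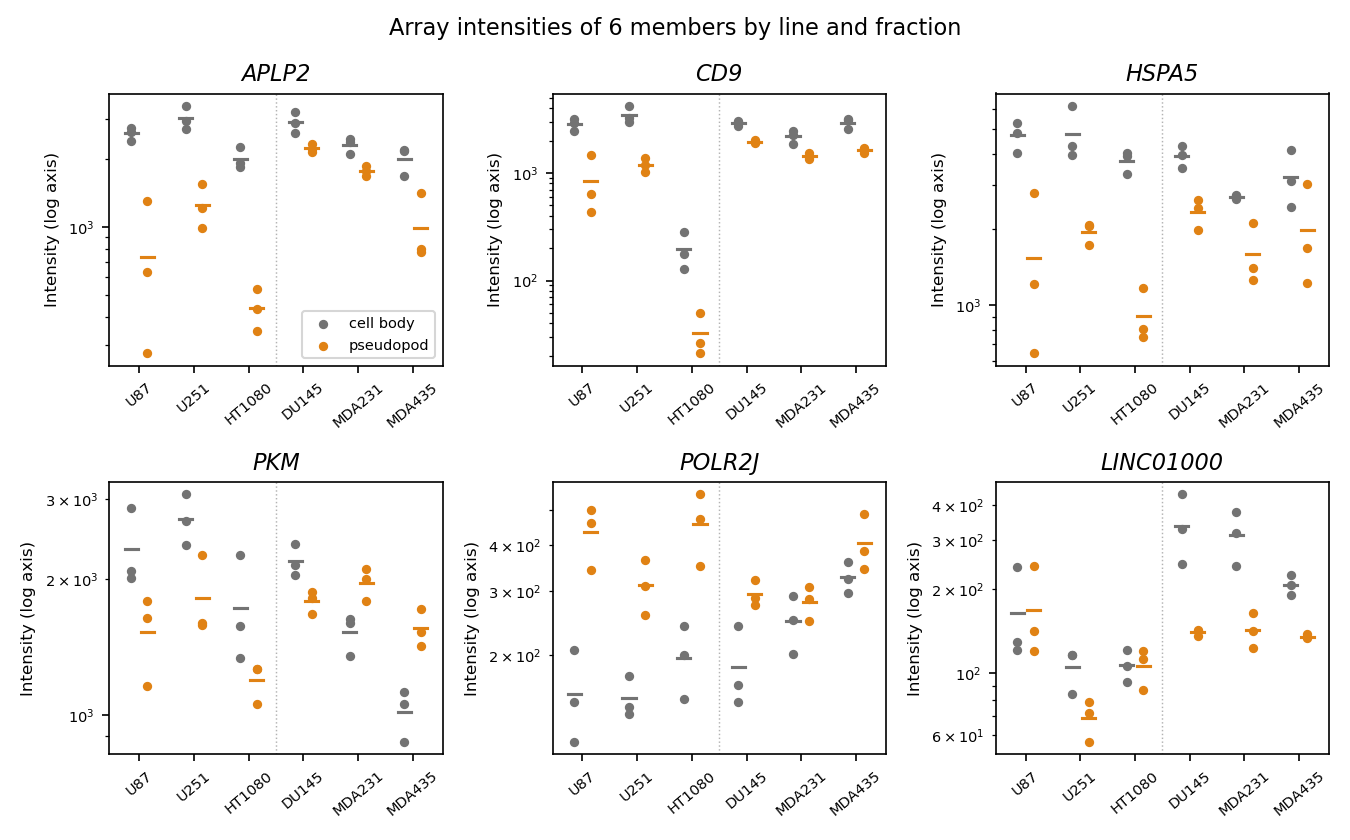
Intensities (log axis) of 6 members on every array, cell body in grey and pseudopod in orange, with a bar at the mean of 3. APLP2, CD9 and HSPA5 drop further in U87, U251 and HT1080 (left of the dotted line), PKM drops there and is higher in the pseudopods of MDA231 and MDA435, POLR2J rises more there, and LINC01000 drops in DU145, MDA231 and MDA435.

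Of the 14 members called higher, 2 were in one of the gene lists (NDUFA3 and RPL29). POLR2J, a subunit of RNA polymerase II, had the largest difference. Its lowest, median and highest cell body intensities were 116, 152 and 240.2 in the first set and 149.7, 249.6 and 359.8 in the second. Its pseudopod intensities were 257, 365 and 550.4 against 248, 307 and 487. The fractions did not overlap in the first set and did in the second. POLR2J rose 2.24-fold in the first set and 1.29-fold in the second, a difference of 0.79 ± 0.17 (SE, adjusted p = 0.0153). Near-identical copies of this gene exist, and its probe set is marked as shared between transcripts, so its signal may include theirs.

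NDUFA3, a subunit of respiratory complex I, rose from a median of 319.7 to 647 intensity units in the first set and from 253 to 361 in the second (difference 0.60 ± 0.12, SE, adjusted p = 0.0104). MIEN1 (0.59) and NOP10, a protein of the small nucleolar particles that modify ribosomal RNA (0.58), had differences of like size. SRA1 (0.58), RWDD1 (0.58), the ribosomal protein gene RPL29 (0.52), C1orf122 (0.51), MTX1, a mitochondrial import protein gene (0.47), POLR1H, a subunit of RNA polymerase I (0.47), and NADK, which makes NADP (0.46), completed the named ones. For POLR1H a dim probe set gave -0.25 and the next brightest 0.11. For NADK the next brightest probe set, at a mean intensity of 642.9 against 713.9, gave 0.09. Another NADK probe set, at 101.5, gave -0.086. With equal array medians none of the 14 was called.

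LINC01000, a long non-coding RNA, was called higher because it fell in the other lines. Its mean cell body and pseudopod intensities were 336.5 ± 95.6 and 139.8 ± 3.55 in DU145, 311.8 ± 68.5 and 142.4 ± 20.5 in MDA231 and 207.3 ± 17.1 and 134.9 ± 2.39 in MDA435 (SD, n = 3). In U87 they were 163.4 ± 67.1 and 167.8 ± 65.6, in U251 105.4 ± 18.7 and 69.0 ± 11.2 and in HT1080 106.6 ± 13.8 and 106.2 ± 17.3. The fractions overlapped in U87 and HT1080 and in none of the other 4. Its difference was 0.75 ± 0.18 (SE, adjusted p = 0.0436), and its probe set is also a shared one. The last 2 of the 14 were CDK16, a kinase gene (0.42), and NDUFAF1, an assembly factor of complex I (0.51), whose changes ran from -0.77 in MDA231 to 0.35 in U251 with overlap between the sets. Other CDK16 probe sets, at mean intensities of 171.4 and 150 against 224, gave 0.02 and 0.24.

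Genes with little spread between lines were found with the lines as units, where none of the members passed. The lowest adjusted p was 0.0789, for STT3A, the catalytic subunit of the oligosaccharyltransferase, and ATP1B1, the beta subunit of the sodium pump. STT3A changed by -2.22, -2.52 and -2.57 in U87, U251 and HT1080 and by -1.23, -1.12 and -0.96 in DU145, MDA231 and MDA435, a difference of -1.33 ± 0.14 (SE over lines). ATP1B1 changed by -1.65, -1.48 and -1.86 against -0.44, -0.55 and -0.57, a difference of -1.14 ± 0.13. The fold of STT3A was 5.42 downward in the first set and 2.15 in the second. In the array test the adjusted p was 0.0657 for STT3A and 0.229 for ATP1B1. Pseudopod and cell body arrays of both genes overlapped in MDA435. There ATP1B1 had 1215 ± 1060 intensity units in pseudopods and 1580 ± 1220 in cell bodies (SD, n = 3).

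PDIA4, an ER disulfide isomerase gene, had a difference of -0.94 ± 0.12, SCD, the ER fatty acid desaturase gene, of -0.97 ± 0.14, FUCA2, a secreted fucosidase gene, of -0.89 ± 0.15 and B4GALT4, a Golgi galactosyltransferase gene, of -0.78 ± 0.11 (SE over lines). In the array test their adjusted p values were, in this order, 0.291, 0.0959, 0.0671 and 0.124. Of these 10 genes only CD9 and LMAN2L were called by that test. CTHRC1, a secreted collagen triple helix protein gene, had changes of 0.38, 0.30 and 0.51 in U87, U251 and HT1080 and of -0.53, -0.42 and -0.72 in the other lines. Its difference was 0.95 ± 0.13 (SE over lines, adjusted p = 0.0826; 0.154 in the array test), and neither set's own change passed. FGD2 had changes of -0.92, -0.82 and -1.12 against 0.08, 0.25 and -0.11, with intensities down to 14 units in single arrays.

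Further steps of the secretory pathway had median differences below 0. Over all members, 20.2% fell in the first set and 17.9% in the second. For 9.01% the first set's lines lay below the others, and 0.464% were called lower. Among tested genes these shares were 17.4%, 14.9%, 6.79% and 0.591%. Of the 523 members that fell between 2-fold and 4-fold on average, 214 had the first set's lines below the others. Of 31 members for N-glycan assembly, 27 fell in the first set and 26 in the second, with a median difference of -0.37. Of them 1 (MAGT1) was called lower, and for 10 the 3 lines of the first set lay below the others. For 23 members of the translocon and signal recognition particle the median difference was -0.18, with 1 (TRAM1) called lower. For 19 cargo receptors of the p24, TM9SF and KDEL kinds it was -0.40 with 18 of 19 below 0, LMAN2 at -0.64 (adjusted p = 0.079). For 28 Golgi glycosyltransferases it was -0.41, with 25 below 0 and 9 separated, and MAN1A1, a Golgi mannosidase gene, at -0.95 ± 0.60 (SE, adjusted p = 0.564).

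The coat proteins of COPI and COPII vesicles are cytosolic and had a median difference of -0.06 over 19 members, which turned to 0.026 when all probe sets of a gene were averaged and to 0.018 without U87. Of these, 3 rose and 1 fell in the first set and 4 rose in the second. COPE, a COPI subunit, rose in both (0.84 and 0.33, difference 0.51, adjusted p = 0.183).

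Surface, matrix and lysosomal genes fell in both sets. Among all members 20.2% and 17.9% fell and 0.464% were called lower, and among tested genes 17.4%, 14.9% and 0.591%. Of 21 members for extracellular matrix, 21 fell in the first set and 19 in the second, with medians of -1.47 and -0.93 and 2 called lower (ADAM10 and TIMP2). Of 20 integrins, tetraspanins and syndecans, 20 and 19 fell, with a median difference of -0.48 and 2 called lower (CD9 and SDC1). Of 25 lysosomal members 24 fell in each set (median difference -0.51; LIPA called lower), and of 15 amino acid and glucose transporters 15 and 14 fell (-0.48, all 15 below 0). SLC12A2, the sodium, potassium and chloride cotransporter, had the largest of these at -0.98 ± 0.53 (SE, adjusted p = 0.46).

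Receptor tyrosine kinases and TGF-beta receptors fell in 11 of 11 cases in both sets, against 20.2% and 17.9% of all members. Their median difference was -0.32. MET, the receptor of hepatocyte growth factor, had -0.74 (adjusted p = 0.239). In the matrix list the median of MDA435, -1.34, was lower than that of U251 (-0.999). MDA435 was also below U251 for integrins, tetraspanins and syndecans (-1.11 against -0.98) and for cargo receptors (-0.96 against -0.90). For the receptor kinase list it was -1.16, below U251 (-0.94) and U87 (-1.08). In the lysosomal and transporter lists the MDA435 median lay above all 3 lines of the first set. The cytoplasmic focal adhesion proteins had a median difference near 0 (-0.005 over 17 members), with ACTN4, an actin cross-linker, at -0.62 (adjusted p = 0.211).

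**Figure D5:**
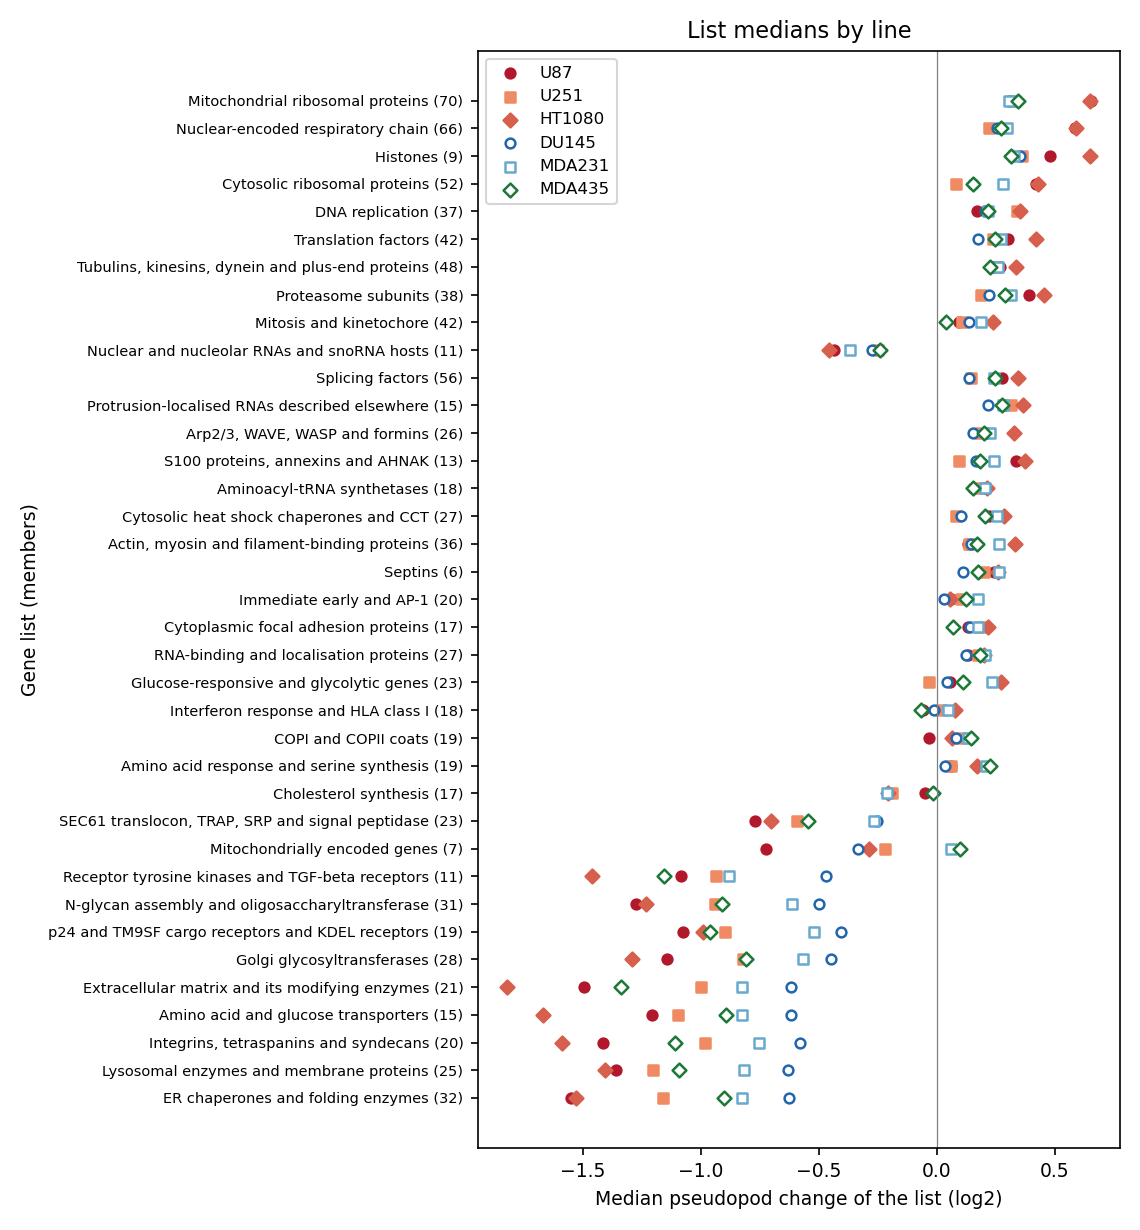
Median pseudopod change (x axis, log2) in each line for every gene list with 6 or more members, ordered by the median difference between the sets, with the number of members in parentheses. For the matrix list the lines run from -1.82 in HT1080 to -0.62 in DU145, and for actin and myosin proteins from 0.13 in U87 to 0.33 in HT1080.

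Most nuclear-encoded mitochondrial members below rose in both sets, where 39.6% and 27.2% of all members did. Of 66 respiratory chain members 56 rose in the first set and 41 in the second, and 0 fell in either. The median difference was 0.19, with 60 of 66 above 0, and NDUFA3 was called higher. Of 70 mitochondrial ribosomal protein members 66 and 54 rose, with a median difference of 0.22. Of them 20 (28.6%) were separated upward, against 12.2% of all members and 10.7% of tested genes. MRPL40 had the largest difference, 0.59 ± 0.15 (SE, adjusted p = 0.0597). The list medians of U87 and HT1080 lay between 0.58 and 0.65. Those of U251 did not go with them: its respiratory median, 0.22, was below those of DU145, MDA231 and MDA435 (0.26 to 0.30), and its mitochondrial ribosomal median, 0.33, was within their range of 0.31 to 0.35.

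Among all members 39.6% rose in the first set and 27.2% in the second, and among tested genes 24.4% and 15.5%. Of 52 cytosolic ribosomal protein members 28 and 16 rose (median difference 0.11, RPL29 called higher). Their share in the second set was near that of all members. The shares were larger for 42 translation factors, of which 30 and 19 rose (0.08), and for 38 proteasome subunits, of which 29 and 22 rose (0.08). EIF4EBP1, a repressor of translation initiation, changed by 1.17 and 0.70 (adjusted p of the difference 0.167) and SEM1, a proteasome subunit, by 1.24 and 0.85 (0.408). The 7 mitochondrially encoded members went the other way, with a median difference of -0.30 and all 7 below 0. Of these, 6 fell in the first set and 1 in the second, where 20.2% and 17.9% of all members did. None of the 7 passed the test of the difference. ND2 of complex I had -0.58 (adjusted p = 0.205).

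Most lists of cytoskeletal and protrusion genes had median differences near the 0.028 of all members. An exception was the intermediate filament list, with -0.15 and all 4 members below 0. The median differences were 0.04 for Arp2/3, WAVE, WASP and formins (26 members), 0.02 for actin and myosin proteins (36), 0.08 for tubulins and motors (48), 0.01 for septins (6) and 0.04 for 15 RNAs described elsewhere as localised to protrusions. With equal array medians those of the actin, Arp2/3, septin and protrusion RNA lists turned negative, as did that of all members (-0.043). No member of them was called. DIAPH1, an actin-nucleating formin, fell in the first set and had the largest difference of its list (-0.57, adjusted p = 0.168), TPM4, a tropomyosin, 0.37 (0.531), and DCTN3, a dynactin subunit, 0.37 (0.202).

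RAB13 and NET1 are known protrusion RNAs. RAB13 rose by 0.66 and 0.72 in the 2 sets (difference -0.06 ± 0.18, SE) and NET1 by 0.57 and 0.46 (0.11 ± 0.20). ACTB and GAPDH did not pass in either set, with differences of 0.01 ± 0.15 and -0.07 ± 0.17. S100A11, a calcium-binding protein gene, rose by 1.00 and 0.54 (difference 0.46, adjusted p = 0.405). AHNAK, which encodes a very large scaffold protein, fell in both sets (difference 0.03 ± 0.26, adjusted p = 0.984).

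Of 11 nuclear RNAs and snoRNA host genes 6 fell in each set, with median changes of -0.44 and -0.29 and a median difference of 0.05 (-0.02 with equal array medians). MALAT1, a nuclear-retained RNA, fell by 0.50 in the first set and by 0.89 in the second (difference 0.39 ± 0.28, SE, adjusted p = 0.633). TAF1D, a host gene of small nucleolar RNAs, fell by 1.45 and 1.92 (0.48, adjusted p = 0.287). RNA45SN5 ranged from 4.7 to 408 intensity units in pseudopods of the first set and from 5.6 to 115 in those of the second. ESYT1, whose protein tethers the ER to the plasma membrane, fell in both sets with a difference of -0.58 (adjusted p = 0.45).

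Gene lists that could bear on the medium had median differences from -0.48 to -0.02. The lowest was that of the 15 amino acid and glucose transporters given above, all below 0. The amino acid response and serine synthesis list (19 members) had a median difference of -0.07 and the glucose-responsive and glycolytic list (23 members) of -0.02, with PKM the only call in either. For 17 cholesterol synthesis members the median difference was -0.14, which turned to 0.023 when all probe sets were averaged. In either set 9 of the 17 fell in pseudopods, where 20.2% and 17.9% of all members did. By the test of the difference 0 of the 17 were called lower. SQLE, an ER enzyme of that pathway, had -0.66 (adjusted p = 0.239). Since these values compare changes within a line, they do not show whether the medium altered the levels themselves.

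The other lists had few members or medians near 0. HLA-B, an antigen-presenting surface protein gene, had -0.75 (adjusted p = 0.0657) in an interferon list with a median of -0.02 over 18 members. CCN1, a secreted matrix protein gene of the immediate early list, had -0.44 (adjusted p = 0.45; list median -0.002 over 20 members). Medians were 0.05 for splicing factors (56 members, LSM7 0.54, adjusted p = 0.176), 0.06 for mitosis genes (42, CENPH 0.47, 0.494), 0.08 for DNA replication (37, RPA3 0.62, 0.111), 0.14 for histones (9, H2BC12 0.49, 0.157) and 0.03 for aminoacyl-tRNA synthetases (18, EPRS1 -0.66, 0.087). With equal array medians the splicing, mitosis and synthetase medians turned negative, as did that of all members (-0.043). The 4 mesenchymal members included TGFBI, a secreted adhesion protein gene, which changed by 0.54 in HT1080, -1.03 in U87 and -1.12 in U251 (difference of the sets 0.66, adjusted p = 0.291).

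The contrast was also read after giving all lines the same size of change, an alternative chosen after seeing the data. Each line's changes were divided by their root mean square and multiplied by the mean of that value over the lines. Then 324 members had the first set's lines all above and 483 all below the others. With lines as units (limma), 273 had an unadjusted p under 0.05, against 958 before. The median difference of the ER list was then -0.20, that of the Golgi list -0.11, of integrins and tetraspanins -0.15, of lysosomal genes -0.07 and of matrix genes -0.02. Over all members it was -0.016. For mitochondrial ribosomal proteins the median difference was 0.04, and for receptor tyrosine kinases and TGF-beta receptors its sign turned, to 0.04.

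Several probe sets were compared where a gene had them. Of the 46 called members, 14 had 1 probe set and 32 had 76 others between them. Of the 40 others with a mean intensity of 100 or more, 39 had the sign of the one used, and 35 had a smaller difference. A log2 change computed with an added 16 units understates the change of dim genes, as for CD9 in HT1080.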

How the data were processed

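The values are the authors' deposited intensity values, linear and 1 column per array (54593 probe sets on Affymetrix HG-U133 Plus 2.0 arrays). Per the submitters' processing notes RMA and Partek were used, with no role stated. Which program made them is not stated in the sources used here. Labelling started from 100 ng RNA with a 2-cycle protocol, per the labels.

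log2(intensity + 16) was computed from the deposited values. A gene was represented by its brightest probe set with 1 symbol, updated through Entrez numbers (GRCh38.p14 RefSeq table). A gene was tested if its brightest group averaged at least 24.4, the overall median. Array medians lay between 18.2 and 30.6, and the number of arrays limits the precision. limma 3.58.1 (R 4.3.3) fitted 12 group means on 36 arrays with 24 residual degrees of freedom, or 6 line differences with 4. p-values were adjusted by Benjamini-Hochberg over all tested genes, and 95% intervals come from the same fit. The fit was tested on simulated data. Other scalings, offsets, probe set choices, array weights and fits without 1 array or 1 line were tried.

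Named genes are the 12 largest called differences in either direction without overlap of lines, the 10 lowest p with lines as units, up to 4 called or the largest member of each list, and genes fixed by name. RNA45SN5, the motif-bearing genes and other called members were named after their values were seen. Members and lists were chosen with earlier results of these data known. Protein features were not analysed here. Replicate numbers were not taken as pairs: the correlations of same-numbered arrays' deviations ran from -0.77 to 0.71 and exceeded 0.1 in 4 of 18 pairs. Figures were drawn with matplotlib.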

Additional observations from a re-analysis of the deposited data

Results flagged for a closer look

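In 46 members the pseudopod change differed between the 2 sets of lines by a test of the difference itself (limma over 36 arrays, adjusted p under 0.05). The difference, as the change of U87, U251 and HT1080 minus that of DU145, MDA231 and MDA435 on the log2 scale, is given here for each. The largest negative differences were those of APLP2 (-1.23), CD9 (-1.18), ADAM10 (-1.12), C5orf15 (-1.02), MAGT1 (-0.90), TMEM43 (-0.88), UXS1 (-0.87), LIPA (-0.87), TIMP2 (-0.83), NDFIP1 (-0.80), MTDH (-0.79), SDC1 (-0.79). The next were PKM (-0.78), LMAN2L (-0.78), PIGO (-0.77), HYAL2 (-0.77), TMX1 (-0.77), PTTG1IP (-0.76), SPTLC1 (-0.70), SLC35A2 (-0.69), MESD (-0.69), TMEM123 (-0.69). The smallest were TMEM248 (-0.66), RNF139 (-0.64), CNPY4 (-0.60), SGCB (-0.59), IL6ST (-0.57), DPY19L3 (-0.56), TMF1 (-0.53), TRAM1 (-0.48), PIGC (-0.44), BLCAP (-0.38).

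The 14 positive differences were those of POLR2J (0.79), LINC01000 (0.75), NDUFA3 (0.60), MIEN1 (0.59), NOP10 (0.58), SRA1 (0.58), RWDD1 (0.58), RPL29 (0.52), NDUFAF1 (0.51), C1orf122 (0.51), MTX1 (0.47), POLR1H (0.47), NADK (0.46), CDK16 (0.42).

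Outside the named genes, 10 of 1217 probe sets without a single gene symbol that reached 100 in the cell bodies of all lines were called, 3 higher and 7 lower, with differences from -0.87 to 1.00. They are not named here.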

How the results depend on the processing

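Counts of called members were less stable than the directions of called members. The 14 members called higher and 32 called lower became 7 and 10 with an offset of 1, 44 and 77 with an offset of 64, and 292 and 497 with array weights. Of 4678 members, 9 and 12 were called when averaging all of a gene's probe sets. Of 4596, 5 and 19 were called without probe sets marked as shared. Equal array medians gave 0 and 75, and quantile normalization 18 called lower. With only the MDA231 and MDA435 arrays of CDH1 under 100 there were fewer calls, but MDA435 then had 1 array of each fraction. Leaving out a line gave 103 lower without U87, 0 and 3 without HT1080, 6 and 2 without DU145, 3 and 6 without MDA231, and 6 and 54 without MDA435. With the replicate block, which the labels do not establish as a pairing, 1 and 9 were called. Without 1 array the counts ran from 7 to 112 higher and from 14 to 397 lower, with both highest values in the fit without U87 pseudopod replicate 3. With lines as units 0 members were called, but 1 with an offset of 64 and with equal array medians, 5 without U251 and 0 to 1 without 1 array. Fewer than 10 were called higher without pseudopod replicate 1 or 2 of U87, 2 of U251, 2 or 3 of HT1080 or 3 of DU145, or cell body replicate 1 or 3 of U87, 2 or 3 of HT1080 or 1 or 3 of DU145 (7 to 9), and 26 without U87 cell body replicate 2. At most 21 were called lower without pseudopod replicate 2 or 3 of U251, HT1080 or DU145, or cell body replicate 3 of U87, U251 or DU145, 2 of HT1080 or 2 of MDA435 (14 to 21).

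The median difference over members was -0.043 with equal array medians (0.019 to 0.047 without 1 array). The number of members also differed between settings. The 842 of 6894 members with the first set's lines above became 368 of 6774 with equal array medians and 505 of 4596 without shared probe sets. There were 1962 without U251, 1290 without DU145, 324 with equal sizes of change, and 716 to 939 without 1 array. The 621 of 6894 below became 396 of 4678 averaging all probe sets, 1256 without U251, 964 without DU145, 1115 without MDA435, and 479 to 732 without 1 array. Fewer lines make separation easier. Without shared probe sets 4 called members changed sign: APLP2 (0.035), PIGC (0.032), POLR1H (-0.25) and TMEM43 (0.29). Otherwise, over named genes and settings, 1579 values kept their side of the threshold, 368 kept direction but lost the call, and 62 gained it. The 1579 include sign changes of genes not called. Without 1 array SOX9 ran from -0.74 to 0.11 and RNA45SN5 from -0.28 to 0.34. The cause of these shifts was not tested. Signals near the added 16 units limit the folds of dim genes.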

Other observations

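Genes grouped by their names alone, chosen after the data were seen, gave values of the same kind. Over all members, 20.2% fell in the first set and 17.9% in the second, and 39.6% and 27.2% rose. The share called lower was 0.464%. Of 98 members named TMEM (transmembrane proteins of mixed function) 66 fell in U87, U251 and HT1080 and 62 in the other lines, with a median difference of -0.22 and 3 called lower. Of 124 members named SLC (solute carriers) 85 and 82 fell, with a median difference of -0.24 and 1 called lower. Of 17 members of GPI anchor synthesis named PIG 14 and 13 fell, with a median difference of -0.38 and 2 called lower. Of 106 members named ZNF (zinc finger proteins, mostly nuclear) 28 rose and 10 fell in the first set and 12 rose and 11 fell in the second, with a median difference of 0.075 and none called.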
